A study of Mus musculus with 9 samples.

Results

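The semaphorin, plexin and neuropilin genes of the mouse were examined in ribosome-associated mRNA of parvalbumin-expressing inhibitory neurons (PV INs) from hippocampal CA3/CA2. The set holds every protein-coding gene whose symbol starts with Sema and a digit or with Plxn, together with Nrp1 and Nrp2. This gave 31 of the 37620 gene identifiers counted: 20 semaphorins, 9 plexins and 2 neuropilins. Sema3f stayed under 1 CPM, a count scaled to the total of its library, in every sample and was not tested, and the other 30 members were.

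All samples came from 2-month-old PV-Cre;Rpl22 HA/HA mice, in which Cre from the Pvalb locus puts the tag on ribosomes of PV INs. A lentivirus carrying a non-targeting shRNA (shNT, 5 samples) or an shRNA against Ablim3 (shRNA, 4 samples) was injected into the dentate gyrus (DG), and CA2/CA3 was collected 2 weeks later. Each sample pooled 6 mice of both sexes. The comparison asks how the transcripts translated in PV INs respond to Ablim3 knockdown in DG granule cells, whose mossy fiber axons contact them.

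Semaphorins are guidance cues that repel or attract growing axons and, in the adult, adjust synapses. Class 3 members are secreted, classes 4 to 6 span the membrane and Sema7a is held by a lipid anchor. Plexins are the receptors and signal through a GTPase-activating domain inside the cell. Most class 3 ligands do not bind plexins directly and need Nrp1 or Nrp2 as the ligand-binding co-receptor, with an A plexin as the signalling chain, whereas Sema3e can bind Plxnd1 without a neuropilin. In the hippocampus Sema3f acting through Nrp2 is known for the pruning of mossy fiber branches, and A plexins with class 6 semaphorins for the layering of mossy fiber terminals.

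Between 18281719 and 34578837 reads were counted on genes per sample. Ablim3, the shRNA target in DG granule cells and not in PV INs, had 12.1 to 22.6 CPM with shNT and 13.7 to 21.7 CPM with shRNA. All 10 PV IN markers had a lower mean in the shRNA samples, and none passed the test. Their summed level was 4892 to 8056 CPM with shNT and 2906 to 7059 CPM with shRNA. Markers of CA3 and CA2 pyramidal neurons summed to 255 to 533 CPM with shNT and 641 to 809 CPM with shRNA, with 7 of 8 higher in the mean and Grik4 called. Those of DG granule cells summed to 67.0 to 120.1 CPM and 134 to 156 CPM, with 4 of 5 higher and Dock10 called. The shRNA sums lay above all shNT sums in both lists. Each sample is RNA pulled down with tagged ribosomes, and the share of it that came from other cells was not measured. Differences in this share, in the number of cells of a type and in RNA per cell cannot be told apart. shRNA replicate 4 stood apart: endothelial markers summed to 1108 CPM, against 83.9 to 162 in its group's other samples (shNT, 131 to 417), astrocyte markers to 5459 against 1410 to 1661 CPM (shNT, 1071 to 1512), and mural cell and fibroblast markers to 290.5 against 39.8 to 53.8 CPM (shNT, 46.4 to 141). In the mean over all shRNA samples 7 of 8 endothelial, 10 of 10 astrocyte and 8 of 8 mural cell and fibroblast markers were higher, and without replicate 4 this was so for 0, 9 and 3. Oligodendrocyte markers summed to 775 to 2406 CPM with shNT and 1470 to 3059 CPM with shRNA (8 of 8 higher), oligodendrocyte precursor markers to 38.0 to 57.7 and 55.3 to 63.6 CPM (4 of 5 higher, Pdgfra and Gpr17 called) and microglia markers to 44.2 to 105 and 80.6 to 92.5 CPM (5 of 8 higher). No marker of any list stayed under 1 CPM in all samples. Reads outside annotated exons were 27.2% in shRNA replicate 4 and 9.76% to 19.8% in the other samples. Changes are therefore also given without this sample.

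Both neuropilins rose in the shRNA samples, and they were the only members called by edgeR's quasi-likelihood test. A gene was called at a false discovery rate (FDR, Benjamini-Hochberg over 15069 genes) under 0.05 and at least a 1.5-fold difference. The 2 calls are 6.67% of the 30 members tested, against 1.74% of all genes called higher. 0 members were called lower, against 0.0133% of all genes, and 16 members were higher at unadjusted p under 0.05 while 0 were lower, against 20.7% and 13.4% of all genes (edgeR quasi-likelihood test). With edgeR's likelihood ratio test 12 members were called higher and 0 lower (11.2% and 3.6% of all genes), and with DESeq2 12 and 0 (10.1% and 5.6%). With limma voom, run with sample quality weights, these were 17 and 0 (15.3% and 4.1%).

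Nrp1 (ENSMUSG00000025810, mm9 chromosome 8 from 130882973 to 131029362) binds class 3 semaphorins, Sema3a above all, and also VEGF. The shNT samples, in replicate order, had 53.1, 54.7, 52.3, 39.6 and 40.6 normalized CPM, and the shRNA samples, in the same order, 89.6, 72.1, 74.2 and 88.0 CPM. The groups did not overlap, and the highest shRNA values were in replicates 1 and 4. Group means of 48.1 ± 7.33 (n = 5) and 81.0 ± 9.08 CPM (n = 4, both with SD) gave a log2 fold change of 0.75 with a standard error of 0.15 and an FDR of 0.0403 by edgeR's quasi-likelihood test.

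Nrp2 (ENSMUSG00000025969, mm9 chromosome 1 from 62749859 to 62865269) is the co-receptor that prefers Sema3f and also binds Sema3c. It had 20.7, 17.6, 24.1, 13.9 and 15.1 CPM in the shNT samples and 32.3, 34.3, 35.7 and 50.7 CPM in the shRNA samples. All shRNA samples again lay above all shNT samples, with replicate 4 the highest. Its means were 18.3 ± 4.17 (n = 5) and 38.2 ± 8.42 CPM (n = 4, both with SD), which differed by a log2 fold change of 1.06 with a standard error of 0.20, again at an FDR of 0.0403 by edgeR's quasi-likelihood test. Without shRNA replicate 4 the log2 fold changes were 0.69 for Nrp1 (FDR = 0.0630) and 0.88 for Nrp2 (FDR = 0.0475), so that 1 of 30 members was called against 0.978% of all genes (edgeR quasi-likelihood test). In shRNA replicates 1 to 3 the endothelial markers summed to 83.9 to 162 CPM, against 131 to 417 CPM with shNT, and 0 of 8 had a higher mean. The part of endothelial RNA in the neuropilin levels was not tested. The summed pyramidal and granule cell markers lay above all shNT sums in all 4 shRNA samples, as the neuropilins did. Not every marker of these lists did so singly. The part of these cells in the rise of the neuropilins was not tested.

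The FDR of the neuropilins lay near the threshold and their calls depended on single samples. They were lost without shNT replicate 3 (FDR = 0.0744 for both), shNT replicate 4 (0.155), shNT replicate 5 (0.169), shRNA replicate 1 (0.0860) or shRNA replicate 3 (0.121), and 0 genes were called higher in these edgeR fits, with 1759 to 2403 genes higher at an unadjusted p under 0.05. Without any 1 sample the log2 fold change stayed between 0.60 and 0.80 for Nrp1 and between 0.88 and 1.11 for Nrp2. The titles carry the number 31 for shNT and shRNA replicates 1 to 3 and 32 for the remaining samples. Within the first set the log2 fold changes were 0.52 for Nrp1 (FDR = 0.284) and 0.68 for Nrp2 (FDR = 0.237, edgeR quasi-likelihood test), and 0 genes were called, with 996 higher at an unadjusted p under 0.05. Within the second set shRNA replicate 4 exceeded the mean of shNT replicates 4 and 5 by 1.13 and 1.80 in log2 CPM, with no test because there was 1 shRNA sample.

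Because the neuropilins were the only members called by edgeR's quasi-likelihood test, the sequences just upstream of both genes are shown. They are the 250 bases before the transcription start from the RefSeq promoter table for GRCm38.p6, a later build than the mm9 used for counting, read 5′ to 3′ on the plus strand, with capitals on GC boxes. The windows are chr8:128358823-128359072 for Nrp1 and chr1:62703067-62703316 for Nrp2.
Nrp1: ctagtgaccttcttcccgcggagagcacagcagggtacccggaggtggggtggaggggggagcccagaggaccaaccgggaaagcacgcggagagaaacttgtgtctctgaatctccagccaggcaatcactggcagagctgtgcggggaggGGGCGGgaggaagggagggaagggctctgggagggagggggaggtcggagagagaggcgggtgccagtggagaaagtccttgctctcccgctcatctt
Nrp2: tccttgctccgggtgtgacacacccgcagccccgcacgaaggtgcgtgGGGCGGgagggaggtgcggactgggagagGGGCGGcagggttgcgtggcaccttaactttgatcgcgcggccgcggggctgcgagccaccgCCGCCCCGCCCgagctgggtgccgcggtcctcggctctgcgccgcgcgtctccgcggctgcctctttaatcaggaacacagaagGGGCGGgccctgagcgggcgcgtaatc
Both windows are rich in G and C (64.4% and 72.4%). The GC box, GGGCGG or its reverse complement CCGCCC, occurred 1 time in Nrp1 and 5 times in Nrp2, where one pair shares a base. It is present in 32.7% of the 32851 windows of this length in the table, which holds 37 windows for 26 of the 31 members. Of these 26 members, 21 had a GC box in any of their windows. This is a count of genes and cannot be set against the share of windows. The MEIS core TGACAG (15.9% of windows), the E-box CACGTG (6.02%) and the cAMP response element TGACGTCA (1.55%), searched on both strands, were not found in either window.

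Of the 30 members tested, 28 had a positive log2 fold change, against 57.9% of all genes. The median over the members was 0.71, against 0.11 over all genes tested. Without shRNA replicate 4 it was 0.51 against 0.03, with 26 of 30 positive (53% of all genes). In 10 members (33.3%) the lowest shRNA sample exceeded the highest shNT sample, against 8.97% of all genes, and the reverse held in 0 members, against 6.68%. The 10 were Nrp1, Nrp2, Sema3d, Sema3e, Sema4a, Sema5a, Sema5b, Sema6a, Sema6d and Plxna3. These 10 had to separate without replicate 4 as well, and no other member did in either direction (10.7% and 7.68% of all genes did without that sample).

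**Figure D1:**
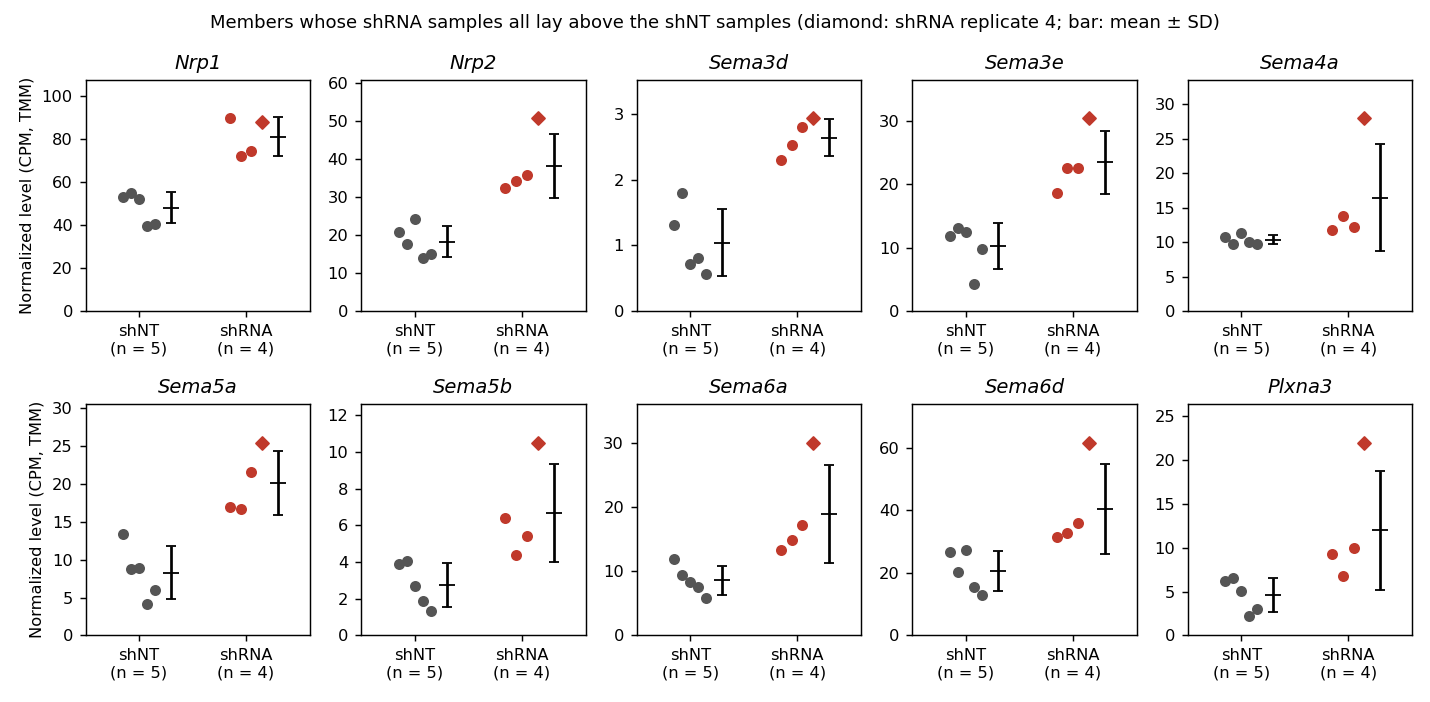
Normalized level in CPM (y axes) of the 10 members whose groups did not overlap, one point per sample, with mean ± SD beside each group (shNT n = 5, shRNA n = 4) and shRNA replicate 4 drawn as a diamond. The diamond lies among the other shRNA samples for Nrp1 and far above them for Sema4a, at 28.0 CPM against 11.7 to 13.9 CPM.

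Transcript length moved with the change over all genes. Fold changes and exon lengths had a Spearman correlation of 0.406 across 15047 genes, which are not independent replicates. Members were long, with a median of 7064 exonic bases against 3622, and the 3015 genes with exon lengths within 25% of that value had a median log2 fold change of 0.34. Taken relative to the trend with exon length, the median over the members was 0.34 against -0.14 over all genes, Nrp1 kept 0.37 and Nrp2 0.51, and 19 of the 30 members stayed positive. The share of all genes positive on this scale was not counted.

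**Figure D2:**
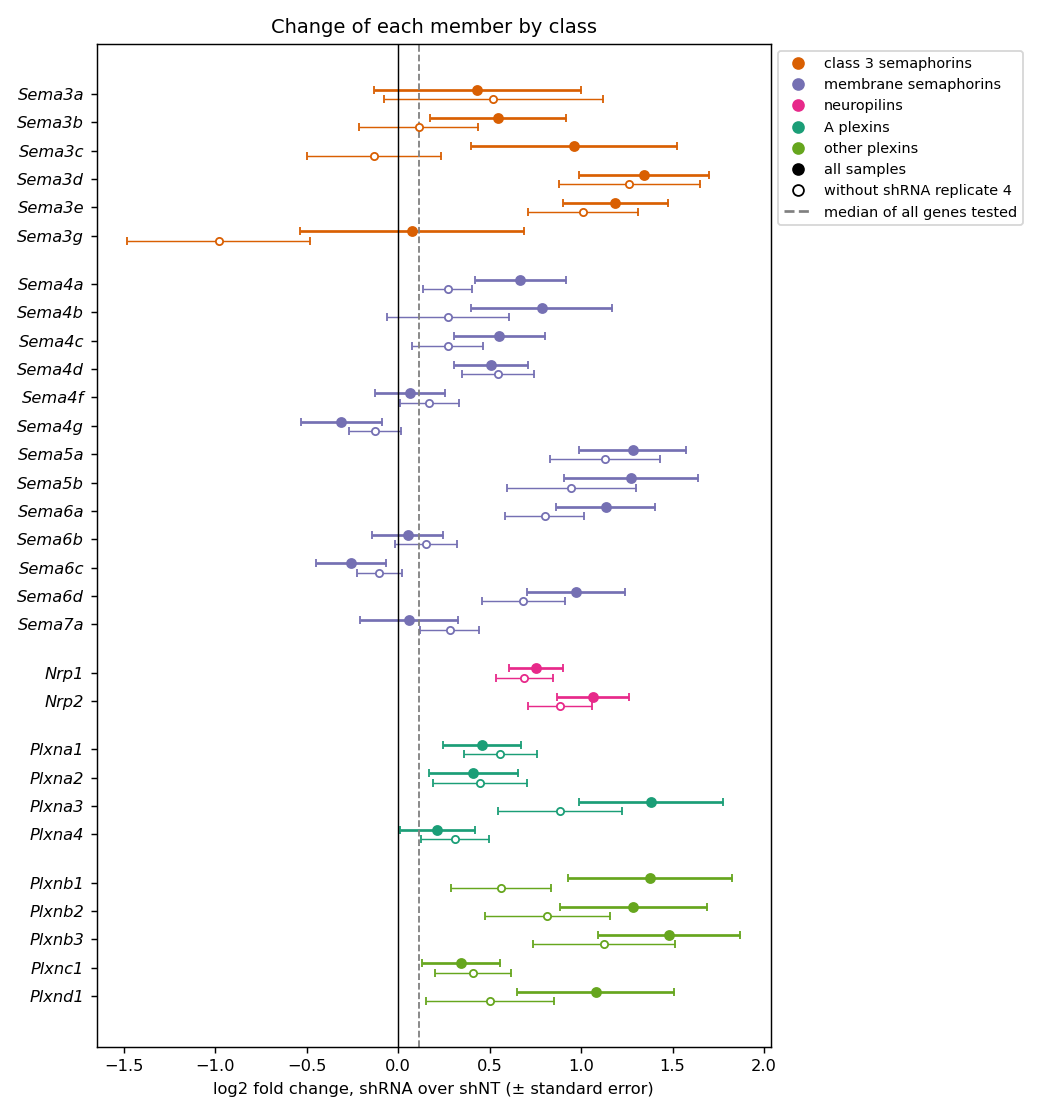
Log2 fold change of shRNA over shNT with its standard error (x axis) for the 30 members tested, grouped by class. Filled points use all samples and open points leave out shRNA replicate 4, and the dashed line is the median of all genes tested, 0.11. The neuropilins have the shortest error bars among the members with large changes. The bars derive from the test statistic and add nothing to the FDR. The open points of Sema3c, Sema3g and Plxnb1 fall far to the left of the filled ones.

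Class 3 semaphorins, the secreted ligands of the neuropilins, were scarce in PV IN samples. Levels between genes are compared as RPKM, which is CPM per kilobase of exon. In the shNT samples Sema3c had 1.45 ± 0.740 RPKM and Sema3e 1.36 ± 0.478 RPKM (SD, n = 5), a difference within their spread, and Sema3a, Sema3b, Sema3d, Sema3f and Sema3g ran from 0.0881 to 0.378 RPKM. The median log2 fold change of the 6 tested was 0.75, and 0.32 without shRNA replicate 4. 0 of the 6 were called (edgeR quasi-likelihood test, 1.74% of all genes called higher), and 2 were higher at an unadjusted p under 0.05 (20.7% of all genes).

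Sema3e (ENSMUSG00000063531, mm9 chromosome 5 from 14025276 to 14256689) had 11.8, 13.1, 12.5, 4.19 and 9.82 CPM in the shNT samples and 18.5, 22.5, 22.5 and 30.4 CPM in the shRNA samples. The groups did not overlap, and shNT replicate 4 was the lowest sample. Its log2 fold change of 1.19 (standard error 0.29) did not pass (FDR = 0.0545, edgeR quasi-likelihood test), and it was 1.01 without shRNA replicate 4 (FDR = 0.120). Sema3d, a close relative, had 1.32, 1.79, 0.720, 0.807 and 0.565 CPM with shNT and 2.29, 2.52, 2.80 and 2.93 CPM with shRNA. These values also did not overlap but are near the 1 CPM filter, and the log2 fold change was 1.34 (FDR = 0.0621) or 1.26 without replicate 4 (FDR = 0.126, edgeR quasi-likelihood test).

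Sema3c (mm9 chromosome 5 from 17080099 to 17236086), which acts through both neuropilins, behaved otherwise. It had 18.5, 12.8, 8.03, 7.06 and 5.55 CPM with shNT and 9.54, 7.11, 12.2 and 52.2 CPM with shRNA. Replicate 4 alone was high, and the other shRNA samples lay within the shNT range. The log2 fold change was 0.96 with all samples (FDR = 0.239) and -0.13 without replicate 4 (FDR = 0.833, edgeR quasi-likelihood test). Sema3g, known from endothelium, had 0.617 to 2.89 CPM with shNT and 0.640, 0.686, 1.30 and 4.60 CPM with shRNA, the last in replicate 4, and its log2 fold change went from 0.07 to -0.98 without that sample. The endothelial markers of replicate 4 were high beside both genes, and their part was not tested. Sema3a, the classical collapsing ligand, had 0.321 to 1.65 CPM and 0.332 to 2.24 CPM, Sema3b 0.908 to 1.32 CPM and 0.782 to 2.84 CPM, and Sema3f 0.151 to 0.688 CPM and 0.426 to 0.949 CPM, all with overlapping groups.

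Membrane semaphorins held most of the ligand RNA. Summed over the 13 genes they came to 77.7 ± 14.2 RPKM with shNT (SD, n = 5) and 84.5 ± 11.2 RPKM with shRNA (SD, n = 4), against 3.81 ± 1.28 and 7.41 ± 4.24 RPKM for the class 3 ligands. Sema6b led in the shNT samples (30.3 ± 6.68 RPKM), ahead of Sema6c (13.4 ± 1.77) and Sema7a (12.6 ± 2.83), which did not differ from each other beyond their spread, and Sema4f (6.95 ± 1.44). None of the 13 was called (edgeR quasi-likelihood test, 1.74% of all genes called higher), 7 had a higher value at unadjusted p under 0.05 and 0 a lower one (20.7% and 13.4% of all genes), and the median log2 fold change was 0.55, or 0.27 without shRNA replicate 4.

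The abundant members of this class changed little. Sema6b, a class 6 ligand of A plexins, had 147, 91.7, 151, 108 and 105 CPM with shNT and 114, 144, 146 and 95.8 CPM with shRNA, and the groups overlapped throughout (log2 fold change 0.05, or 0.15 without replicate 4, FDR = 0.863, edgeR quasi-likelihood test). Sema7a, which signals through Plxnc1 and through integrins, had 55.2, 36.2, 46.9, 35.3 and 33.4 CPM with shNT and 49.9, 49.9, 52.6 and 20.2 CPM with shRNA. Here replicate 4 was the lowest of all samples, and the log2 fold change was 0.06, or 0.28 without it. Sema6c and Sema4g were the members with negative log2 fold changes, -0.26 (FDR = 0.342) and -0.31 (FDR = 0.332), and Sema4f had 0.07 (FDR = 0.822, edgeR quasi-likelihood test).

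Among the membrane semaphorins, rarer members of classes 5 and 6 had the largest positive values. Sema5a, a transmembrane semaphorin with thrombospondin repeats (mm9 chromosome 15 from 32174568 to 32626096), had 13.4, 8.77, 8.92, 4.19 and 5.99 CPM with shNT and 16.9, 16.6, 21.5 and 25.4 CPM with shRNA. All shRNA samples were above the shNT samples, and its FDR fell just outside the threshold (log2 fold change 1.28, standard error 0.29, FDR = 0.0503, edgeR quasi-likelihood test). It was 1 of the 12 members called by the likelihood ratio test (FDR = 0.00224) and by DESeq2 (FDR = 0.00201), against 11.2% and 10.1% of all genes. Both tests also called Nrp1, Nrp2, Sema3d, Sema3e, Sema5b, Sema6a, Sema6d, Plxna3, Plxnb1, Plxnb2 and Plxnb3. Without shRNA replicate 4 the log2 fold change of Sema5a was 1.13 (FDR = 0.0963, edgeR quasi-likelihood test).

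Sema5b, its paralog, had 3.88, 4.04, 2.71, 1.87 and 1.32 CPM with shNT and 6.41, 4.37, 5.43 and 10.5 CPM with shRNA (log2 fold change 1.27, FDR = 0.0652, edgeR quasi-likelihood test). Sema6a, a ligand of Plxna2 and Plxna4, had 11.98, 9.41, 8.30, 7.52 and 5.83 CPM with shNT and 13.4, 14.9, 17.3 and 30.1 CPM with shRNA (1.13, FDR = 0.0537). In both genes replicate 4 was the highest sample and the groups did not overlap. Sema6d, a ligand of Plxna1, had 26.6, 20.3, 27.4, 15.5 and 13.0 CPM with shNT and 31.4, 32.7, 36.0 and 61.7 CPM with shRNA (0.97, FDR = 0.0630, edgeR quasi-likelihood test). Without replicate 4 the log2 fold changes of Sema5b, Sema6a and Sema6d were 0.95, 0.80 and 0.68, with FDR of 0.151, 0.0996 and 0.136 (edgeR quasi-likelihood test).

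In class 4, Sema4d, a ligand of Plxnb1 made mainly by oligodendrocytes in the brain, had 13.1 to 24.3 CPM with shNT and 23.0 to 29.0 CPM with shRNA (log2 fold change 0.51, or 0.55 without replicate 4, FDR = 0.106, edgeR quasi-likelihood test). Sema4a had 10.8, 9.78, 11.3, 10.1 and 9.72 CPM with shNT and 11.7, 13.9, 12.2 and 28.0 CPM with shRNA. It varied little with shNT (SD 0.673 CPM, n = 5), and the groups separated although the log2 fold change without replicate 4 was only 0.27, against 0.67 with it. Sema4b (0.78, or 0.27 without replicate 4) and Sema4c (0.55, or 0.27) had overlapping groups.

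**Figure D3:**
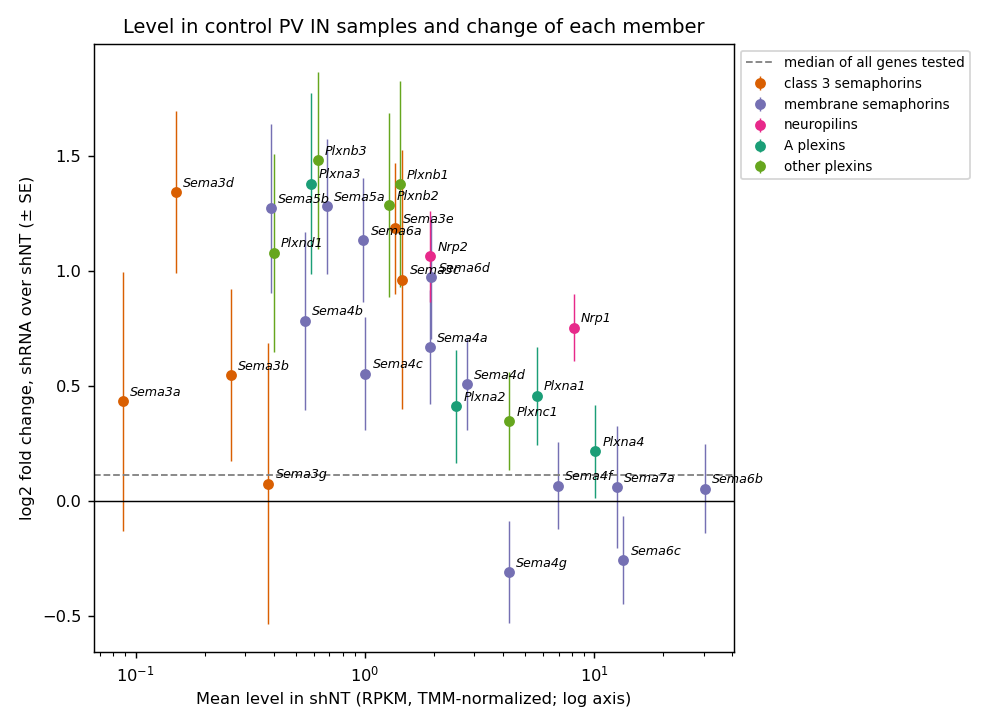
Mean level in the shNT samples in RPKM (x axis, log scale) against the log2 fold change of shRNA over shNT with its standard error (y axis), one point per member. Among the 10 most abundant members Nrp1, at 8.14 RPKM and 0.75, lies above the others, which run from -0.31 to 0.51, and most of the rarer members lie higher.

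Level and change ran in opposite directions among the members. The 10 with the highest shNT level, 2.78 to 30.3 RPKM, had a median log2 fold change of 0.14 (8 of 10 positive), and the other 20 had 1.07 (20 of 20 positive). Without shRNA replicate 4 these medians were 0.30 and 0.62. The Spearman correlation of shNT level with log2 fold change was -0.586 over the 30 members and -0.630 over 15047 genes, and the same shNT samples enter both axes. Over the members it was -0.312 without shRNA replicate 4. Of the upper 10, only Nrp1 had groups that did not overlap with shRNA higher, against 8.97% of all genes.

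The plexins are the receptor chains. The A plexins, the signalling partners of the neuropilins, had a median log2 fold change of 0.43, and 0.50 without shRNA replicate 4. Plxnb1, Plxnb2, Plxnb3, Plxnc1 and Plxnd1 together had 1.29, and 0.56 without it. The subfamilies interleaved, and the difference between them was not tested. None of the 9 plexins was called by edgeR's quasi-likelihood test (1.74% of all genes called higher), 5 had a higher value at unadjusted p under 0.05 and 0 a lower one (20.7% and 13.4% of all genes), and 4 were called higher by the likelihood ratio test and by DESeq2 (11.2% and 10.1% of all genes).

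Plxna4, the most abundant plexin (10.1 ± 2.58 RPKM with shNT, SD, n = 5), is the main partner of Nrp1 in the response to Sema3a. It had 165, 96.1, 157, 97.6 and 118 CPM with shNT and 141, 160, 175 and 113 CPM with shRNA (log2 fold change 0.21, FDR = 0.463, edgeR quasi-likelihood test). Plxna1 had 72.5, 47.0, 55.8, 37.2 and 40.8 CPM with shNT and 65.1, 73.8, 87.3 and 52.1 CPM with shRNA (0.46, FDR = 0.154), and 10.8% of its exonic bases overlap a gene on the other strand. Both overlapped between groups, as did Plxna2, a receptor of Sema6a, with 24.9 to 54.1 CPM and 40.2 to 59.1 CPM (0.41, FDR = 0.245, edgeR quasi-likelihood test). Without shRNA replicate 4 the log2 fold changes were 0.31 for Plxna4, 0.56 for Plxna1 and 0.45 for Plxna2. Plxna3, which pairs with Nrp2 for Sema3f, was the rarest A plexin and had 6.15, 6.56, 5.04, 2.17 and 3.04 CPM with shNT and 9.24, 6.79, 9.97 and 22.0 CPM with shRNA. Its groups did not overlap, although shRNA replicate 2 and shNT replicate 2 lay close together, and the log2 fold change was 1.38 (FDR = 0.0651), or 0.89 without replicate 4 (FDR = 0.155, edgeR quasi-likelihood test). Relative to the trend with exon length the A plexins other than Plxna3 had negative values, between -0.43 and -0.07. The median over all genes on this scale was -0.14.

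The B plexins are receptors of class 4 semaphorins and act on RhoA. Plxnb1 had 19.2, 16.1, 10.4, 9.03 and 8.78 CPM with shNT and 19.3, 15.4, 22.6 and 75.1 CPM with shRNA. Replicate 4 stood far above the rest, and the log2 fold change was 1.38 with it (FDR = 0.0739) and 0.56 without it (FDR = 0.220, edgeR quasi-likelihood test). Plxnb2 went from 1.29 to 0.82 and Plxnb3, known from oligodendrocytes, from 1.48 to 1.12 when that sample was left out. Plxnd1, the Sema3e receptor of endothelium, had 1.57 to 4.94 CPM with shNT and 3.56, 3.66, 5.17 and 11.95 CPM with shRNA, and its log2 fold change went from 1.08 to 0.50. Plxnc1, the receptor of Sema7a, had 40.4, 22.3, 38.3, 25.2 and 23.7 CPM with shNT and 32.5, 41.5, 46.1 and 32.3 CPM with shRNA, with overlapping groups (0.35, or 0.41 without replicate 4, FDR = 0.260, edgeR quasi-likelihood test). Astrocyte, endothelial and oligodendrocyte markers were also at their highest in replicate 4, and their part in the values of the B plexins and Plxnd1 was not tested.

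**Figure D4:**
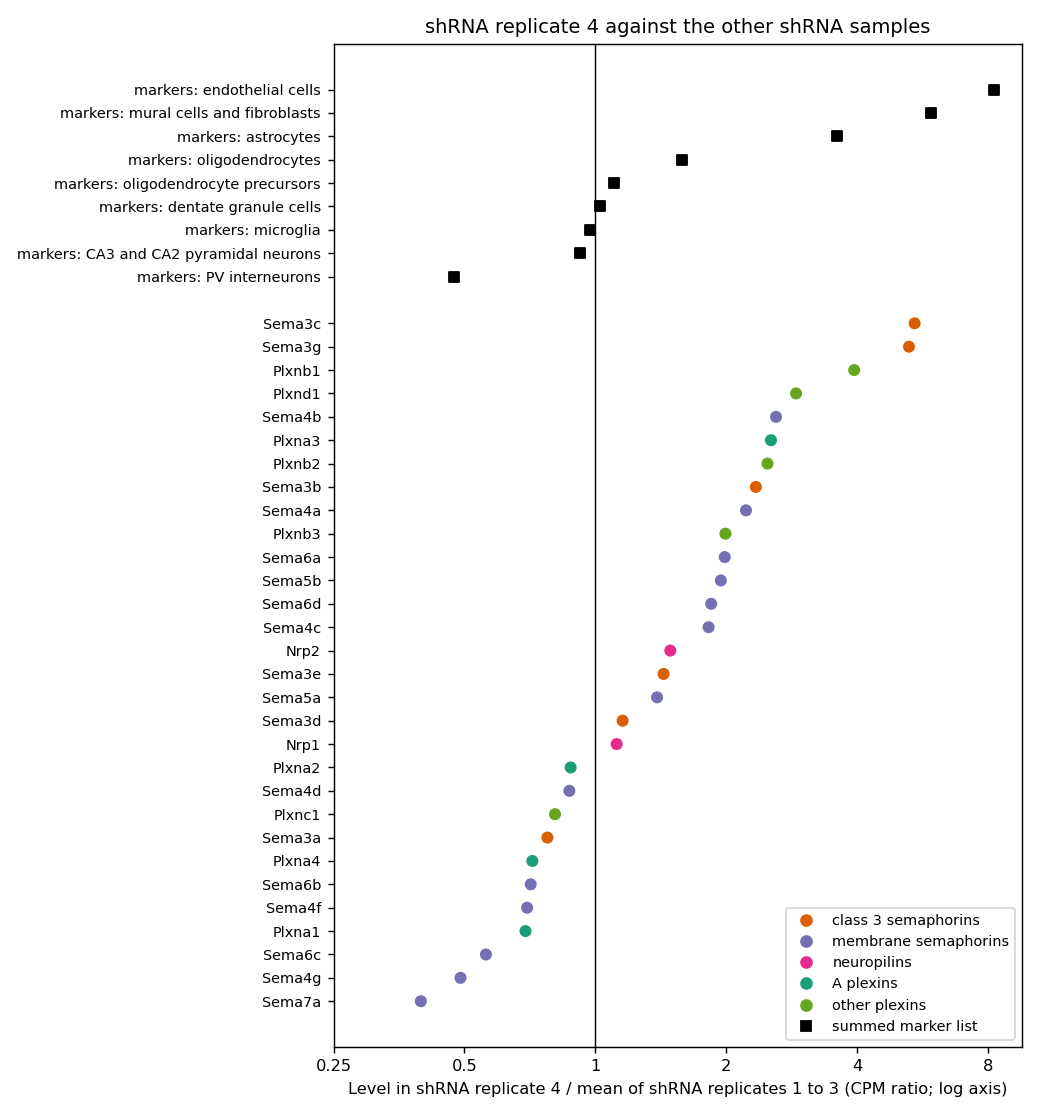
Ratio of the level in shRNA replicate 4 to the mean of shRNA replicates 1 to 3 (x axis, log scale) for the 30 members tested, coloured by class, and for the summed marker lists (black squares). Sema3c (5.42) and Sema3g (5.26) lead the members and Sema7a (0.397) is lowest, while the endothelial list reaches 8.25 and the PV IN list 0.473.

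shRNA replicate 4 split the members. It was the highest of all 9 samples in 18 of the 30, against 33.3% of all genes, and the lowest of the shRNA samples in 9, against 42.5%. In the first set were 5 of the 6 class 3 ligands tested, 7 of the 13 membrane semaphorins, all 3 B plexins, Plxnd1, Plxna3 and Nrp2. These membrane semaphorins were Sema4a, Sema4b, Sema4c, Sema5a, Sema5b, Sema6a and Sema6d. In the second set were the other membrane semaphorins, Sema6b, Sema6c, Sema7a, Sema4d, Sema4f and Sema4g, with Plxna1, Plxna4 and Plxnc1. Nrp1, at 1.12 times the mean of replicates 1 to 3, and Sema3d, at 1.16 times, were the members least moved by it in the upward direction.

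Summed by class, the neuropilins alone separated the groups: 8.17 to 11.4 RPKM with shNT and 15.8 to 20.2 RPKM with shRNA, a ratio of the means of 1.76, or 1.68 without replicate 4. Nrp1 and Nrp2 each separated the groups singly, so their sum had to do so and adds no further evidence. The ratios were 1.95 for class 3 semaphorins and 1.39 without that sample, 1.86 and 1.51 for the plexins other than A, 1.29 and 1.36 for the A plexins, and 1.09 and 1.15 for the membrane semaphorins, and the groups overlapped in each of these.

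Among 41 genes for partners and effectors of semaphorin signalling, 2 were called higher, Met and Mical1, and 0 lower (edgeR quasi-likelihood test, against the same 1.74% and 0.0133% of all genes). Their median log2 fold change was 0.15, against 0.11 over all genes, and 28 were positive, against 57.9% of all genes. Met, a receptor tyrosine kinase that B plexins can bind, had 0.0918 to 0.446 CPM with shNT and 1.06, 0.959, 1.64 and 2.39 CPM with shRNA, a log2 fold change of 2.49 (FDR = 0.0403). It passed the filter on low levels only through the shRNA samples, so that a difference was built into its being tested, and its FDR was 0.0555 without replicate 4 (edgeR quasi-likelihood test).

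Mical1 is an actin-oxidizing enzyme that binds A plexins. It had 8.71, 4.31, 2.85, 2.12 and 1.10 CPM with shNT and 30.4, 14.4, 20.8 and 16.6 CPM with shRNA, a log2 fold change of 2.43 (FDR = 0.0414, and 0.0498 without replicate 4, edgeR quasi-likelihood test). Exons of Smpd2 on the other strand overlap 15.0% of its exonic bases. Met and Mical1 lost their calls without the same 5 samples as the neuropilins, with FDR between 0.0744 and 0.169 (edgeR quasi-likelihood test). Among all 41 partners the groups did not overlap in 3 with shRNA higher (7.32%) and in 2 with shRNA lower. Over all genes these shares were 8.97% and 6.68%, so separation was not particular to the partners. Of the other partners, chosen after their values were seen, Mical3 was higher without overlap (log2 fold change 1.67, FDR = 0.0503), and Cfl1 (-0.63, FDR = 0.0858) and Gipc1 (-0.39, FDR = 0.0884), which binds the tail of Nrp1, were lower without overlap (edgeR quasi-likelihood test). Without replicate 4 these were 1.82, -0.51 and -0.33. The collapsin response mediators Crmp1, Dpysl2, Dpysl3, Dpysl4 and Dpysl5 had log2 fold changes between -0.21 and 0.18. Kdr, the VEGF receptor that pairs with Nrp1 in endothelium, had 3.48 to 16.0 CPM with shNT, 5.47 to 9.44 CPM in 3 of the shRNA samples and 75.3 CPM in replicate 4.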

How the data were processed

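Ribosome-associated RNA was sequenced in 5 shNT and 4 shRNA samples. The authors used STAR for alignment (mm9 transcriptome) and HTSeq 0.6.0 for counting per gene, without regard to strand, and deposited these counts unnormalized. Their annotation is not given in the sources used here. Symbols, positions and exon lengths came from the GENCODE annotation of the same build, which named 37205 of 37620 identifiers. Mical3 has a pair of identifiers, and the one with more reads was used.

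The 15069 genes that reached 1 CPM in any sample were scaled by TMM. They were compared by the quasi-likelihood test of edgeR (version 4.0.16, under R 4.3.3), with Benjamini-Hochberg adjustment over all of them. For alternatives, limma 3.58.1 (voom with sample quality weights) and DESeq2 1.42.0 were used. Levels are TMM-normalized CPM, log2 levels use a prior count of 2, and RPKM divides CPM by exon length. Standard errors are the size of the log2 fold change divided by the square root of the quasi-likelihood test statistic. The methods were tested on simulated counts. By the mouse numbers the authors give, each sample pooled its own mice. Nothing states that the pools came from separate cohorts, so p-values set the group difference against the spread between these pools only.

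Members were given values in every sample where they were called or their groups did not overlap, with or without shRNA replicate 4, or were among the 2 most abundant of their class, and so was Sema3c. Members and lists were chosen with earlier results of these data known. Replicates of one group differed by more than sampling noise. Deviations from the group mean correlated at -0.641 to 0.486 between samples of the same number, so the replicate numbers were not treated as pairs. Depth was 18281719 to 34578837 gene counts per sample.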

Additional observations from a re-analysis of the deposited data

Results flagged for a closer look

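In 60 groups of values (30 members, 2 groups each), 6 held a sample far from the others, where a rate of 1 in 20 gives about 3. The share of all genes with such a sample was not counted, so the 6 are not a result about the members. In all 6 the sample was shRNA replicate 4, which was the highest of the 9 samples in 33.3% of all genes. It exceeded the rest of its group by far in Sema3c (52.2 against 7.11 to 12.2 CPM), Sema3g (4.60 against 0.640 to 1.30 CPM), Sema4a (28.0 against 11.7 to 13.9 CPM), Sema6d (61.7 against 31.4 to 36.0 CPM) and Plxnb1 (75.1 against 15.4 to 22.6 CPM). It was far below them in Sema7a (20.2 against 49.9 to 52.6 CPM). The same sample had the highest sums of endothelial, astrocyte and mural cell and fibroblast markers and the lowest sum of PV IN markers, and the part of these in the values was not tested.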

How the results depend on the processing

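The number of members called higher depended on the test: 12 with the likelihood ratio test, 12 with DESeq2 and 17 with limma voom (11.2%, 10.1% and 15.3% of all genes). It was 6 without a filter on low counts (501 of 24072 genes) and 0 with a replicate block (29 of 15069 genes). It was also 0 with library sizes alone, with reads outside exons as a covariate and within set 31, where 0 genes were called at all, so that these zeros say nothing about the members (3071, 2887 and 996 genes were higher at an unadjusted p under 0.05, edgeR quasi-likelihood test). Without 1 sample in turn it was 0 to 9, with 9 without shNT replicate 1 (1007 of 15065 genes) and 4 without shNT replicate 2 (481 of 14969 genes). Partners called higher were 4, 4 and 10 of 41 with the same 3 tests, against 11.2%, 10.1% and 15.3% of all genes. They were 1 with the replicate block (29 of 15069 genes) and 0 with library sizes alone, the covariate or set 31. Without 1 sample in turn they were 0 to 4, with 4 without shNT replicate 1 (1007 of 15065 genes). By the likelihood ratio test and by DESeq2, 1 partner was called lower (3.6% and 5.6% of all genes). No member was called lower in any of these fits. Within set 31 the median log2 fold change was 0.25 over the members, 0.19 for class 3 semaphorins, 0.17 for membrane semaphorins, 0.60 for neuropilins, 0.25 for A plexins and 0.29 for plexins other than A. Relative to exon length it was -0.14 over all genes, 0.34 over the members and 0.44 for neuropilins. It was 0.39 for class 3 and 0.25 for membrane semaphorins, -0.19 for A plexins and 0.83 for the other plexins. With the covariate it was 0.46 for class 3 semaphorins, 0.36 for membrane semaphorins and 0.58 for plexins other than A, with limma voom 0.42, 0.33 and, for A plexins, 0.79, and with the replicate block 0.37 for class 3. Without 1 sample in turn these medians ran from 0.51 to 0.79 over the members, 0.25 to 0.60 for A plexins, 0.32 to 0.99 for class 3, 0.27 to 0.68 for membrane semaphorins, 0.75 to 0.96 for neuropilins and 0.56 to 1.5 for the other plexins. Sema3c turned negative within set 31 (-0.49), with the covariate (-0.22) and without 1 sample (-0.13 to 1.28). Sema6b was -0.0091 with the set as a block and -0.10 to 0.15 without 1 sample, and Sema7a -0.12 with the set as a block, -0.077 with the replicate block and -0.12 to 0.28 without 1 sample. The cause was not tested.

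Samples with the same replicate number did not deviate together, so the replicate block stands for a shared number only. With it Nrp1 had a log2 fold change of 0.70 (FDR = 0.290) and Nrp2 1.00 (FDR = 0.227, edgeR quasi-likelihood test), and 29 genes in all were called higher, against 262 without it.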
